A study of Triticum aestivum with 4 samples.

Results

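RPM1-like transcripts of wheat roots were the assembled transcripts whose best protein hit was named disease resistance protein RPM1 or RPM1-like, in Aegilops tauschii (goatgrass, donor of the D subgenome of bread wheat) or Brachypodium distachyon. They were chosen by the text of the annotation and by the number of decimals of the deposited values in both groups. No measure of change was used, but the condition on decimals is not free of change. The rows it left out were mostly low, with medians of 0.52 in control and 1.35 in hypergravity, but reached 913.81 and 714.1. Of these rows 30.4% were at 0 in control and 3.66% in hypergravity. Transcripts near 0 in 1 group can thus be missing from the members and from all transcripts tested. Of 363 transcripts that name this protein, 252 also had values that could be resolved into single libraries and a best hit in a close grass relative. These 252 are described here, out of 91482 transcripts with values per library and 147297 in all. They lay in 167 assembled genes and matched 72 different proteins. Of the 252, 238 had their hit in goatgrass and 14 in Brachypodium.

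RPM1 is an NLR, an intracellular immune receptor with a nucleotide-binding domain (NB-ARC) and leucine-rich repeats, and it carries a coiled-coil region at its start that the Pfam database lists as the Rx N-terminal domain. In Arabidopsis, RPM1 guards the membrane-bound protein RIN4 and sets off a defence response when bacterial effectors modify it. Grass genomes hold large NLR families, often in clusters of near copies, and most members have no known ligand. A transcript named RPM1-like is therefore known by resemblance only.

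The roots came from bread wheat (Triticum aestivum) of the genotype UAS-375, aged 45 days and grown in pipes in a greenhouse. Seeds of the hypergravity group had been held at 10 g for 12 h and then sown, and seeds of the control group were untreated; genotype, age and growth were shared by both groups. Each group had 2 libraries, called a and b here because nothing tied a recovered library to a replicate number. The labels do not say whether they were separate plants, so the p-values cover only the variation among these libraries, which may be technical.

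Recovered counts summed to between 46604327 and 53346750 per library. Within each group the libraries differed by more than counting noise, with a chi-square per degree of freedom of 4.80 in control and 5.87 in hypergravity, so neither pair was counted as a single library. This does not tell separate plants from separate preparations. Transcripts of root markers (CASP-like proteins, nicotianamine synthases and root development proteins, 123 transcripts) took between 0.0858% and 0.0923% of the counts. The CASP-like ones are named for likeness to Casparian strip proteins, and whether they are limited to roots was not tested. Leaf markers, of photosystems and chlorophyll-binding proteins, took between 0.00305% and 0.00443%. The summed levels of both lists did not overlap between the groups. The normalized counts of root markers summed to 44200 and 46235 in control and then 42098 and 42261. Of these transcripts 5 were called higher (4.07%) and 18 lower (14.6%), where 13.5% and 11.9% of all transcripts were. The lower calls included 7 of 14 transcripts of CASP-like protein 4D1. They also included 2 of 2 of nicotianamine synthase 1, 3 of 3 of nicotianamine synthase 2 and 2 of 3 of nicotianamine synthase-like 5. Leaf markers summed to 1566 and 1529 in control and then 2153 and 1850, with 2 of 8 called higher and 1 lower. Their part in the results below was not tested. The level of a transcript is given as its normalized count, which is the recovered count divided by the size factor of its library. A change is the log2 fold change of hypergravity against control ± its standard error (SE), and calls in either direction needed a Benjamini-Hochberg adjusted p under 0.05 in limma's moderated test over all 91482 transcripts.

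The domains named for the members went with the label for 130 of 252. The deposited Pfam annotation, which lists 1 domain per transcript, gave an NB-ARC domain for 87, an Rx N-terminal domain for 41 and a leucine-rich repeat for 2. It gave no domain for 117. The other 5 were listed with a thioredoxin domain (2), a jacalin-like lectin domain, a pectinesterase domain or a UDP-glycosyltransferase domain. Members were between 502 and 8103 bases long with a median of 1089.5; 44 were at least 2500 bases.

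The RPM1-like transcripts moved in both directions. In roots from hypergravity seeds 47 of 252 were higher, 31 were lower and 174 were not called. Of all transcripts, 13.5% were called higher and 11.9% lower, while the members' shares were 18.7% and 12.3%. The share of lower members was thus near that of all transcripts. The median log2 fold change of the members was 0.10, against -0.01 over all transcripts. Both hypergravity libraries lay above both control libraries in 110 members and below them in 65, where 31.9% and 32% of all transcripts did so. An unadjusted p under 0.05 was found for 104 members (41.3%) and for 37.4% of all transcripts. Called changes of 2-fold or more numbered 16 upward (4.94% of all transcripts) and 8 downward (3.16% of all). Bulk RNA cannot tell apart fewer cells of a type and less RNA per cell. The lower count was 20 without control b.

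Together the members took 0.141% and 0.135% of the counts in the control libraries, and 0.153% and 0.164% in the hypergravity libraries. Their normalized counts summed to 68748 and 67843 in control, and to 74598 and 80905 after hypergravity. Per kilobase of transcript, their mean normalized count over all libraries ran from 23.1 to 1030 with a median of 103, and the median of all transcripts was 127. The lowest count of a member in any library was 13, and the median SE of a member's change was 0.19.

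**Figure D1:**
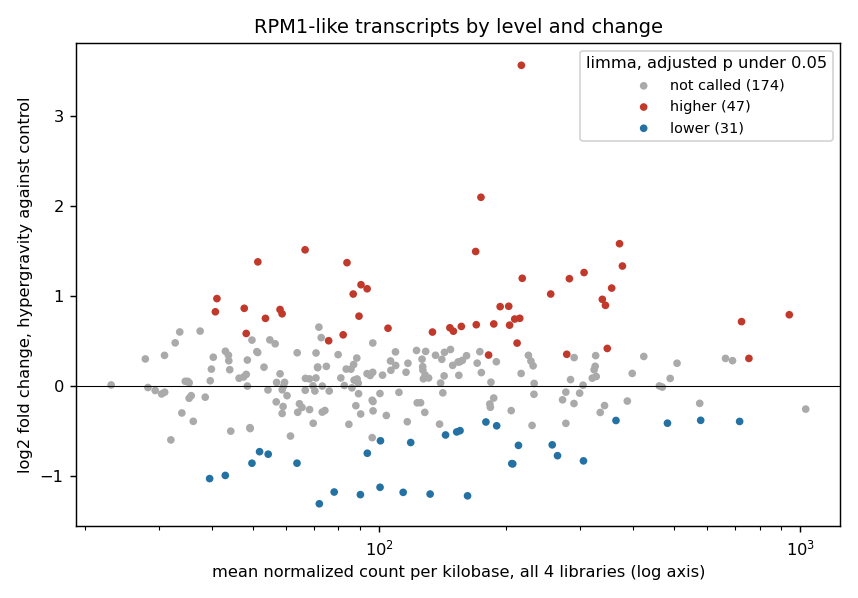
Each point is 1 of the 252 RPM1-like transcripts, with its mean normalized count per kilobase over all 4 libraries on a log axis (x) and its log2 fold change of hypergravity against control (y). Calls by limma in both directions (47 higher, 31 lower) are spread over the range of levels, and 1 transcript stands above all others at 3.56.

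The transcript that changed most was TRINITY_DN5404_c0_g1_i3, 2196 bases long with an NB-ARC domain. It had 79.9 and 67.6 normalized counts in the control libraries, and 839 and 924 after hypergravity. That is an 11.8-fold rise, or 3.56 ± 0.14 on the log2 scale (adjusted p = 8.61e-07). It was the only member with this goatgrass protein (XP_020199144.1) as best hit and the only member in its assembled gene. The next largest change among the members was 2.10 ± 0.20, of TRINITY_DN70812_c0_g1_i1, a fragment of 564 bases. That fragment stood at 35.5 and 37.6 in control and at 171 and 149 in hypergravity.

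A further 10 transcripts, 1 per assembled gene, made up the 12 that rose most. TRINITY_DN6138_c0_g1_i3 went from 251 and 216 normalized counts to 686 and 716 (1.58 ± 0.12, adjusted p = 1.71e-05). TRINITY_DN6138_c5_g1_i3, with an NB-ARC domain, went from 51.3 and 52.6 to 141 and 157. TRINITY_DN25016_c0_g1_i1 went from 141 and 122 to 309 and 324. These 3 share the best hit of the 564-base fragment, and their groups are far apart. TRINITY_DN6138_c2_g1_i1, listed with the coiled-coil (Rx N-terminal) domain, stood at 76.9 and 96.8 and then at 204 and 195. TRINITY_DN6138_c0_g2_i1 stood at 104 and 122 in control and at 201 and 263 in hypergravity. Both belong to the same best hit and show rises of 1.20 ± 0.18 and 1.03 ± 0.18.

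The other 5 had other best hits. TRINITY_DN27516_c0_g1_i1 and TRINITY_DN4722_c0_g1_i1 shared a Brachypodium RPM1 protein (XP_003577691.1) as best hit. The first had normalized counts of 57.2 and 59.2 in control, then 156 and 148 in hypergravity, and the second had 82.8 and 67.6 and then 150 and 170. Their changes of 1.37 ± 0.19 and 1.08 ± 0.19 were close to each other, in separate assembled genes. The third transcript with this best hit, TRINITY_DN78443_c0_g1_i1, was not called (0.21). TRINITY_DN36444_c0_g1_i3 rose from 92.7 and 82.7 to 186 and 200. TRINITY_DN28198_c0_g2_i1 had low counts, 23.7 and 30.1 in control and 64.7 and 78.3 in hypergravity. TRINITY_DN5786_c1_g1_i1 was the lowest of the group, at 13.8 and 25.4 in control, then 63.6 and 48.4 in hypergravity, and its SE was accordingly large (1.52 ± 0.32, adjusted p = 0.0068).

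**Figure D2:**
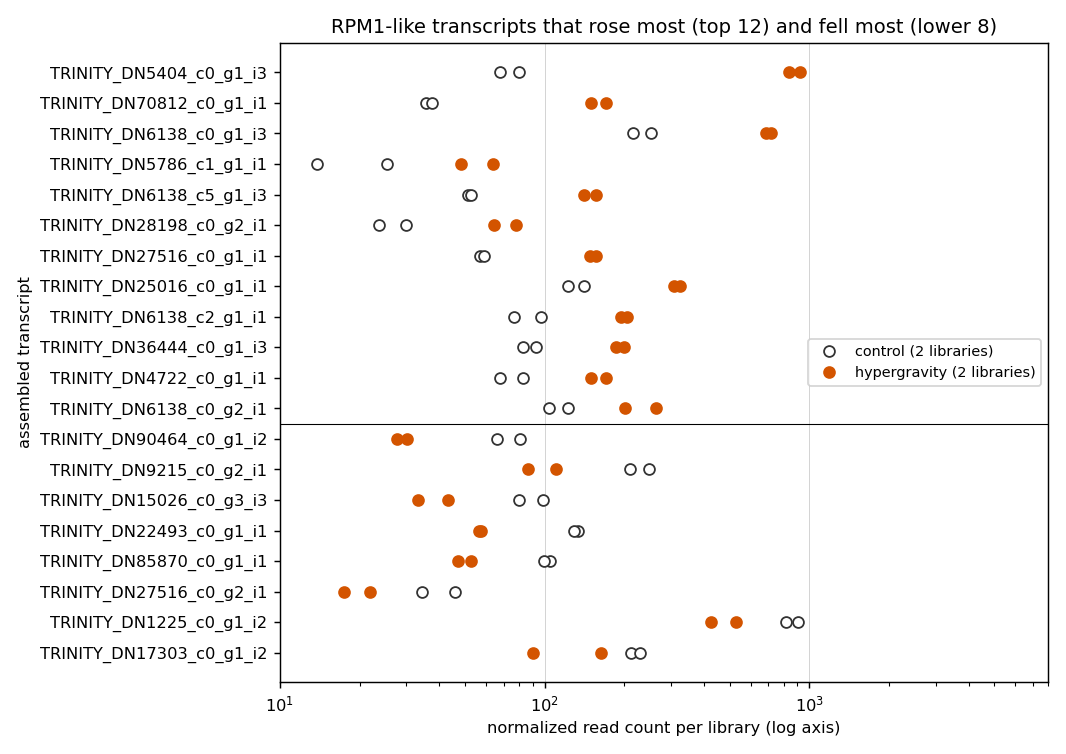
Normalized read counts on a log axis in each library of control (open) and hypergravity (filled) for the 12 RPM1-like transcripts that rose most and the 8 that fell most, 1 per assembled gene. The groups do not overlap in any of them, which the choice of these transcripts required, and the gap is widest for TRINITY_DN5404_c0_g1_i3 (79.9 and 67.6 against 839 and 924).

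The largest fall was smaller than the largest rise, while the median called change was 0.83 upward and -0.75 downward. The largest fall was of TRINITY_DN90464_c0_g1_i2, which went from 66.1 and 80.8 to 30.2 and 27.8 (-1.30 ± 0.24, adjusted p = 0.00307). Its best hit, XP_020169267.1, was also that of TRINITY_DN5786_c1_g1_i1, which rose by 1.52. A group of 3 of the 8 transcripts that fell most, in separate assembled genes, shared the best hit XP_020186363.1. Among these, TRINITY_DN9215_c0_g2_i1 went from 248 and 209 to 86.6 and 110. TRINITY_DN22493_c0_g1_i1, with an NB-ARC domain, went from 134 and 130 to 56.3 and 57.7, and its libraries differed little within each group. TRINITY_DN15026_c0_g3_i3 went from 98.6 and 79.9 to 33.4 and 43.2. Their changes lay between -1.22 and -1.20.

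The others that fell most had different best hits. TRINITY_DN85870_c0_g1_i1, with an NB-ARC domain, stood at 105 and 99.6 in control and at 46.9 and 52.5 in hypergravity (-1.02 ± 0.21). TRINITY_DN1225_c0_g1_i2 is 3224 bases long with a coiled-coil domain and was the most abundant of the 8 in both groups. It went from 904 and 819 normalized counts to 424 and 528 (-0.86 ± 0.13, adjusted p = 0.000825). A pair of these calls depended on single libraries. TRINITY_DN27516_c0_g2_i1, from 34.5 and 46.0 to 21.9 and 17.5, lost its call without control b (adjusted p = 0.168) and without hypergravity b (0.125). TRINITY_DN17303_c0_g1_i2, a coiled-coil member at 212 and 229 and then at 90.7 and 163, lost its call without hypergravity a (adjusted p = 0.116) and without the mean-variance trend (0.102).

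Per kilobase, the most abundant RPM1-like transcript was TRINITY_DN226_c0_g2_i2, with an NB-ARC domain. It had 2927 and 2904 normalized counts in control libraries, and 2225 and 2690 after hypergravity. It was not called (-0.25 ± 0.10, adjusted p = 0.104), although both hypergravity libraries lay below both control libraries, and it was called lower without hypergravity b (adjusted p = 0.015). Next came TRINITY_DN1952_c0_g1_i6, with a Brachypodium RPM1 as best hit, at 2752 and 2733 in control and 4487 and 5047 in hypergravity (0.80 ± 0.09, adjusted p = 0.000195). Both hypergravity libraries lay well above both control libraries. TRINITY_DN28198_c0_g3_i1 stood at 685 and 659 in control and at 810 and 857 in hypergravity. Its call (0.31 ± 0.10, adjusted p = 0.0424) was lost when any 1 of the 4 libraries was left out, with adjusted p between 0.055 and 0.24.

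Members were also grouped by best hit. This grouping was chosen after the data were seen and was not tested, and members with 1 best hit can be pieces of 1 message or near copies from the wheat subgenomes that share reads. Of the 72 proteins, 25 were the best hit of at least 4 members, and these held 174 members. Calls went only upward for 9 of the 25, only downward for 7 and both ways for 3, and 6 had no call. All transcripts were called in 1 direction for 3 of the 25.

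The best hit with the most higher calls was the goatgrass protein XP_020156667.1. All 12 of its transcripts were called higher, in 7 assembled genes, with changes between 0.75 and 2.10 and a median of 1.20. Of these 12, 7 came from 1 read cluster of the assembly (TRINITY_DN6138). The normalized counts of the 12 summed to 2292 and 2439 in control, and to 5362 and 5500 after hypergravity. The longest of them, TRINITY_DN6138_c0_g1_i8 at 2907 bases, stood at 666 and 658 in control and at 1385 and 1436 in hypergravity (1.09 ± 0.09, adjusted p = 2.93e-05). The transcripts outside that cluster include 3 of TRINITY_DN12528_c0_g2, whose changes were 0.89, 0.88 and 0.75. The call of the last, TRINITY_DN12528_c0_g2_i3, was lost without control a (adjusted p = 0.0535) or hypergravity a (0.0534).

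The protein XP_020163988.1 was the best hit of 4 transcripts of 1 assembled gene (TRINITY_DN12425_c0_g1), and all 4 rose by between 0.61 and 0.68. The Brachypodium protein XP_010228015.1 had 3 of 5 transcripts higher and held the most counts of any best hit. The call of 1 of these, TRINITY_DN8195_c0_g2_i1, was lost when any single library was left out (adjusted p between 0.0591 and 0.149). Its transcripts summed to 6274 and 6473 in control, and to 9818 and 10827 after hypergravity. A 5570-base transcript of it, TRINITY_DN1952_c0_g1_i2, is the one listed with a UDP-glycosyltransferase domain, and it went from 2994 and 3108 to 4757 and 5297. A shorter transcript of the same assembled gene, TRINITY_DN1952_c0_g1_i1, stood at 378 and 494 and then at 376 and 280, and was not called (-0.41 ± 0.17, adjusted p = 0.11).

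In the other direction, all 4 transcripts of XP_020151616.1 were called lower, in 4 assembled genes, with changes between -0.99 and -0.39. Each of these 4 calls was lost without 1 or more single libraries: TRINITY_DN1302_c0_g1_i4 without control a or hypergravity a (adjusted p = 0.105 and 0.101), TRINITY_DN50619_c1_g1_i2 without control b or hypergravity b (0.148 and 0.198), TRINITY_DN9097_c0_g1_i1 without control b (0.0594), and TRINITY_DN27516_c0_g2_i1 as given above. The most abundant of them, TRINITY_DN9097_c0_g1_i1, is 3571 bases long with a coiled-coil domain and went from 1941 and 1999 to 1429 and 1539 (-0.41 ± 0.09, adjusted p = 0.00798). The sum over its assembled gene was not called by limma (-0.24 ± 0.09, adjusted p = 0.0667), while the sums over the other genes were called lower. Of 12 transcripts of XP_020186363.1, 5 fell by between 1.12 and 1.22 on the log2 scale and 7 were not called, with changes from -0.08 to 0.66, so that no change lay between -1.12 and -0.08. The 3 transcripts of XP_020191955.1, all in 1 assembled gene, also fell (-0.85, -0.75 and -0.73). All 3 calls were lost without control b (adjusted p between 0.0758 and 0.168) and without hypergravity b (between 0.0665 and 0.182), and that of TRINITY_DN10844_c0_g1_i5 also without control a (0.0629).

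**Figure D3:**
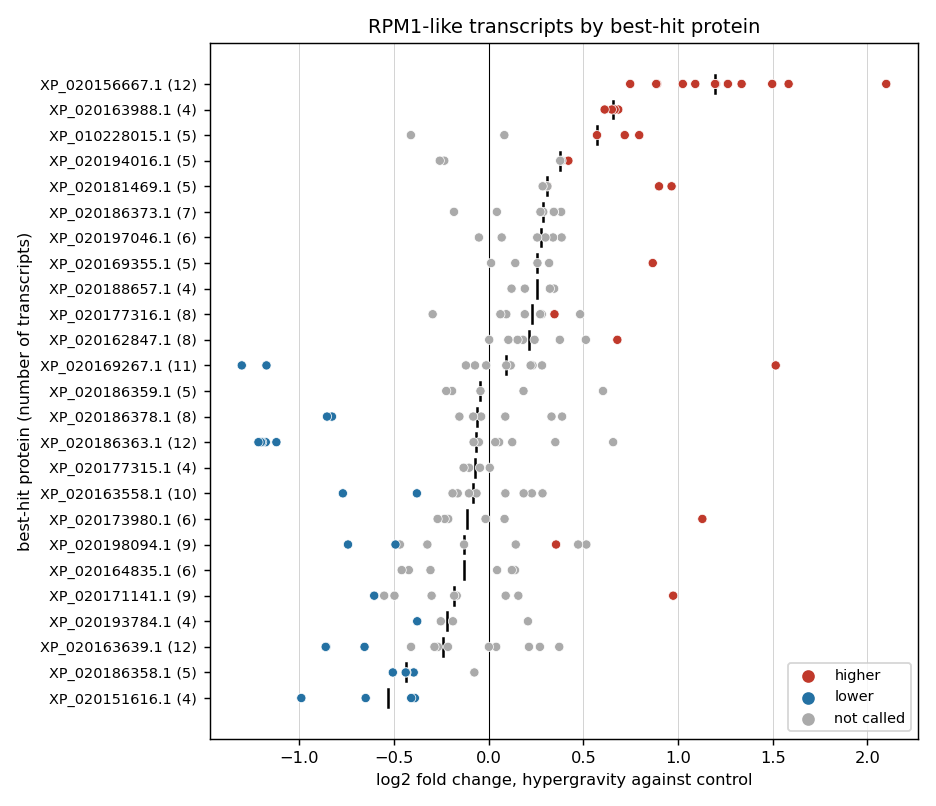
Log2 fold change of hypergravity against control (x) for RPM1-like transcripts, in rows by best-hit protein, for the 25 proteins with at least 4 transcripts (number in brackets). Points are transcripts coloured by limma's call and black bars are medians: the row of XP_020156667.1 holds 12 higher calls and that of XP_020151616.1 holds 4 lower calls.

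Domain class and length showed calls in both directions, where 13.5% of all transcripts were called higher and 11.9% lower. Of 87 members with an NB-ARC domain 19 were higher (21.8%) and 7 were lower (8.05%). Of 41 with a coiled-coil domain 8 were higher (19.5%) and 11 were lower (26.8%). Of 117 without a listed domain 18 were higher (15.4%) and 13 were lower (11.1%), near the shares over all transcripts. The difference between these classes was not tested. Of the 14 members with a Brachypodium hit 5 were higher and 0 were lower, and 7 had an unadjusted p under 0.05, as had 37.4% of all transcripts. Among the 44 members of at least 2500 bases, a length chosen after the data were seen, 10 were higher and 7 were lower.

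Of the 5 members listed with a domain foreign to a plain NLR, the one with a UDP-glycosyltransferase domain rose and the others were not called. TRINITY_DN1449_c0_g1_i4, the longest member at 8103 bases and listed with a jacalin-like lectin domain, had 2504 and 2363 normalized counts in control and 2640 and 3050 in hypergravity (0.22 ± 0.10, adjusted p = 0.126). TRINITY_DN4001_c0_g2_i2, with a thioredoxin domain, stood at 2012.5 and 1957 in control and at 1941 and 2006 in hypergravity, so that its groups overlap. TRINITY_DN7065_c0_g1_i5, with a pectinesterase domain, also had overlapping groups (0.01 ± 0.09). Whether such transcripts are 1 message or a join made by the assembly was not tested.

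Counts were also summed over all transcripts of each assembled gene. Of 167 genes with RPM1-like transcripts, 34 were higher and 15 were lower, where 14.3% and 12.3% of all 47167 assembled genes were called. The median was 0.09, against -0.01 over all genes. The higher count was 20 without hypergravity b, and the lower count was 9 without hypergravity a. A single member was found in 118 of these genes, of which 25 members were higher and 9 lower. In the 49 genes with several members, 22 of 134 transcripts were higher and 22 lower.

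Transcripts of 1 gene could go opposite ways. In TRINITY_DN20914_c0_g1, isoform i4 had 619 and 581 normalized counts in control and 708 and 832 in hypergravity (0.36 ± 0.11, adjusted p = 0.0424). Isoform i3 had 339 and 300 and then 231 and 221 (-0.49 ± 0.13, adjusted p = 0.0222), and isoform i5 had 90.7 and 103 and then 60.5 and 54.6 (-0.74 ± 0.21, adjusted p = 0.0258). The gene's sum did not follow either direction, at 1285 and 1191 in control and 1203 and 1309 in hypergravity (0.02 ± 0.10). These calls are weak: i4 was lost without control a, control b or hypergravity b (adjusted p between 0.0568 and 0.225), i3 without control a (0.155) or hypergravity b (0.0867), and i5 without control b (0.154) or hypergravity b (0.106).

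In TRINITY_DN3143_c0_g1, isoform i10 rose from 52.3 and 39.5 to 105 and 77.2 (0.97 ± 0.25, adjusted p = 0.0172), while isoform i16 fell from 308 and 306 to 205 and 198 (-0.60 ± 0.13, adjusted p = 0.00746). Leaving out control b (adjusted p = 0.0608) or hypergravity a (0.104) ended the call of i10. The gene's sum was not called (-0.30 ± 0.11, adjusted p = 0.0749). Reads shared between isoforms can move from one to the other in the estimate, and their part in these differences was not tested. Other genes were uniform: all 5 transcripts of TRINITY_DN6138_c0_g1 rose and all 4 RPM1-like transcripts of TRINITY_DN1225_c0_g1 fell, and the sums over these genes changed by 1.20 ± 0.09 and -0.62 ± 0.10.

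**Figure D4:**
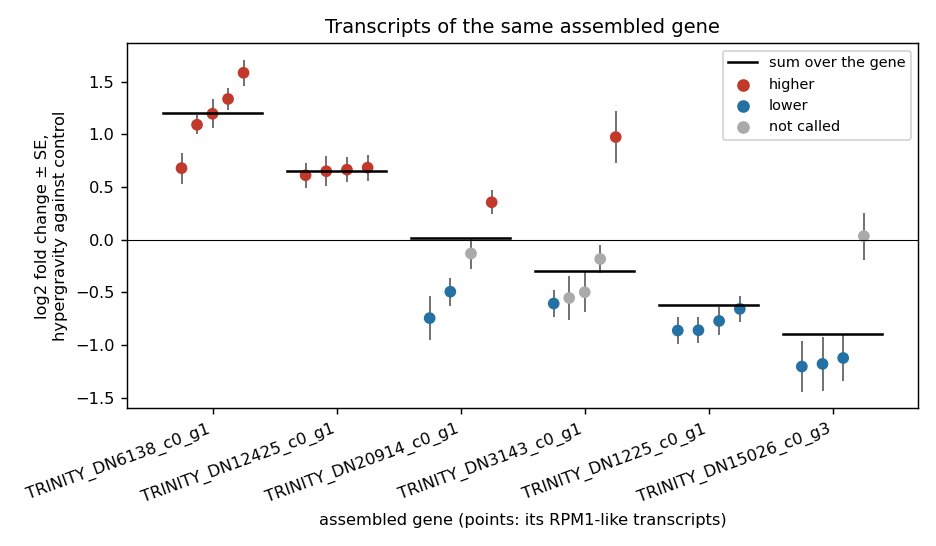
Change on the log2 scale ± SE, hypergravity against control, for the RPM1-like transcripts (points, coloured by limma's call) of 6 assembled genes, with the change of each gene's summed counts as a black line. In TRINITY_DN20914_c0_g1 and TRINITY_DN3143_c0_g1 transcripts were called in both directions, and the sums (0.02 and -0.30) were not called.

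NLRs of other names, with the same kinds of best hit, are given here for scale, and their difference from the RPM1-like transcripts was not tested. Calls made up 13.5% (higher) and 11.9% (lower) of all transcripts. These shares were 17.4% and 9.35% for RPP13-named transcripts, and 27.6% and 12.4% for disease resistance proteins with other names. Of 794 RGA-named NLR transcripts 12.7% were higher and 79 (9.95%) were lower, with a median of 0.04. Both RGA shares were thus slightly under those of all transcripts. Without hypergravity b the higher count was 64, and the lower count was 50 without control a and 51 without hypergravity a. Of 770 RPP13-named transcripts 134 were higher and 72 lower, with a median of 0.06; the higher count was 81 without hypergravity b and the lower count was 45 without control b and 47 without hypergravity a. Without the mean-variance trend 47 RPP13-named transcripts were lower. Of 217 transcripts of disease resistance proteins with other names 60 were higher and 27 lower, with a median of 0.23, and 27 were higher without hypergravity b.

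The largest changes among these NLRs were of RGA1 (TRINITY_DN3566_c0_g1_i7), from 74.9 and 77.0 to 569 and 638, and of a protein named At3g14460 (TRINITY_DN102868_c0_g1_i1), from 29.6 and 27.2 to 199 and 164. RPP13-like protein 3 (TRINITY_DN4316_c1_g1_i5) rose from 58.2 and 68.6 to 337 and 323. An RPP13-like transcript (TRINITY_DN10529_c0_g2_i4) fell from 285 and 280 to 55.3 and 76.2, a change of -2.10 ± 0.19 and larger than any fall of an RPM1-like transcript.

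Partners of RPM1 at the membrane moved both ways. RIN4, named RPM1-interacting protein 4, is the protein that RPM1 guards in Arabidopsis. Of its 12 transcripts, in 5 assembled genes, 5 were higher and 0 lower, with a median of -0.04. The 5 higher ones lay in 2 assembled genes. In 4 others both hypergravity libraries lay below both control libraries, as in 32% of all transcripts. Over all transcripts 13.5% were called higher and 11.9% lower. An unadjusted p under 0.05 was found for 8 of the 12 and for 37.4% of all transcripts. The rest of this list were NDR1/HIN1-like proteins, named after a membrane protein that RPM1 signalling needs in Arabidopsis. Over the whole list 13 of 51 were higher and 10 lower, with a median of -0.20. An NDR1/HIN1-like protein 10 transcript (TRINITY_DN74013_c0_g1_i1) rose from 40.4 and 31.9 to 117 and 114, while another of the same name (TRINITY_DN59358_c0_g1_i5) fell from 113 and 139 to 46.9 and 42.2. The lower count was 20 without control a, 5 without control b, 4 without hypergravity b and 4 without the mean-variance trend.

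PAD4 is a lipase-like protein that works with EDS1 in immune signalling. It was higher in 4 of 4 transcripts of 2 assembled genes, where 13.5% of all transcripts were called higher. The first, TRINITY_DN1173_c0_g1_i6, went from 2017 and 2070 to 5022 and 5571 (1.37 ± 0.09, adjusted p = 7.60e-06). Another, TRINITY_DN5333_c0_g1_i1, went from 154 and 140 to 339 and 414 (1.35 ± 0.15). The 3 EDS1 transcripts, of 1 assembled gene, were not called and changed by between 0.04 and 0.09.

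SGT1 and RAR1, the co-chaperones that help NLR proteins fold and stay stable, had 3 of 6 transcripts lower and 0 higher, with 4 at an unadjusted p under 0.05 (37.4% of all transcripts). The falls were all of SGT1. TRINITY_DN6461_c0_g1_i3 stood at 1460 and 2004 in control and at 1136 and 981 in hypergravity (-0.70 ± 0.14, adjusted p = 0.00575), and TRINITY_DN6461_c0_g2_i3 at 116 and 92.1 and then at 42.8 and 66.9. The call of the second was lost without control a (adjusted p = 0.066) or hypergravity a (0.116), and 1 call was left in the list without control a. No call was left without the mean-variance trend, where the first of these transcripts had an adjusted p of 0.0687.

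Salicylate receptors of the NPR family and PR1, a secreted protein used as a marker of salicylate responses, were mostly higher when called: 21 of 45 rose and 1 fell, with a median of 0.38. The pattern also took in 2 transcripts of SUPPRESSOR OF NPR1-1 CONSTITUTIVE 4-like, of which 0 were called. The whole list lay in 22 assembled genes, and 13.5% of all transcripts were called higher. Among NPR3-like transcripts 8 of 10 rose, and the 10 lay in 2 assembled genes. Of 10 PR1-like transcripts, in 4 assembled genes, 3 were higher, 1 was lower and 6 were not called, with a median of 0.03. The only fall in the list was this PR1-like transcript. A PR1-like transcript (TRINITY_DN6078_c0_g1_i1) rose from 68.0 and 103 to 574 and 431 (2.55 ± 0.21), and NPR1-like (TRINITY_DN25879_c0_g1_i3) from 135 and 161 to 309 and 294. A second PR1-like transcript (TRINITY_DN4409_c0_g1_i9), at 1017 and 1542 and then 2527 and 1854, lost its call without hypergravity a (adjusted p = 0.0583). Without the mean-variance trend 6 of the list were higher and 0 lower. The lower count was 2 without control a or without hypergravity a, and 0 without hypergravity b.

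Respiratory burst oxidases, the membrane enzymes that make superoxide in defence and growth, rose in 23 of 35 transcripts and fell in 4. Their median was 0.84, and the 35 lay in 25 assembled genes. Over all transcripts 13.5% were called higher and 11.9% lower. TRINITY_DN11125_c0_g1_i6, a homolog B-like transcript, went from 278 and 361 to 1201 and 1057 (1.83 ± 0.14, adjusted p = 1.50e-05). Of all 24 homolog B-like transcripts, in 16 assembled genes, 15 were higher and 3 lower. Of 4 homolog H transcripts 1 was higher and 1 lower. All 4 homolog A-like transcripts, in 3 assembled genes, and all 3 homolog E-like transcripts, in 2, were higher. The lower count was between 0 and 2 without any 1 library: 2 without control a, 0 without control b, and 1 without either hypergravity library. It was 0 without the mean-variance trend. Of 194 transcripts of pattern receptors and their cytoplasmic kinases, in 100 assembled genes, 54 rose (27.8%) and 14 fell (7.22%), with a median of 0.16. Of 5 transcripts named after EFR, an Arabidopsis receptor for a bacterial protein, 1 was called higher (TRINITY_DN1158_c0_g1_i1, from 145 and 148 to 496 and 555), and the median of the 5 was -0.22. Of the kinase PBL19, 13 of 26 transcripts were higher, and the 26 lay in 8 assembled genes. The lower count in this list was 6 without control b or hypergravity b and 9 without hypergravity a, and it was 2 without the mean-variance trend.

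Of 93 transcripts of cell death regulators 28 rose and 24 fell. Their median was -0.10, and transcripts of 1 name could be called in both directions. Metacaspase-1-like, of a protease family that in Arabidopsis takes part in NLR-triggered cell death, had 12 of 15 transcripts lower and 0 higher. The 15 lay in 6 assembled genes, and 13.5% of all transcripts were called higher and 11.9% lower. In contrast, the 1 transcript named metacaspase-1 rose (0.51). TRINITY_DN3813_c0_g1_i5, a metacaspase-1-like transcript, went from 1395 and 1987 to 534 and 415 (-1.82 ± 0.17, adjusted p = 5.06e-05). MLO-like protein 1 belongs to a family known for mildew susceptibility in barley. It had 14 transcripts in 6 assembled genes, 8 higher and 2 lower. Among the higher ones, TRINITY_DN3825_c0_g1_i3 went from 92.7 and 81.7 to 370 and 352. All 7 transcripts of LOL2-like, a zinc finger protein of 1 assembled gene, were higher. The lower count of the list was 15 without control b, without hypergravity b or without the mean-variance trend, and the higher count was 16 without that trend. F-box protein CPR30-like, whose Arabidopsis relative marks NLRs for breakdown, had 4 transcripts and 0 calls by limma, and 0 of them had an unadjusted p under 0.05. Without control a, 1 of the 4 was called lower.

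**Figure D5:**
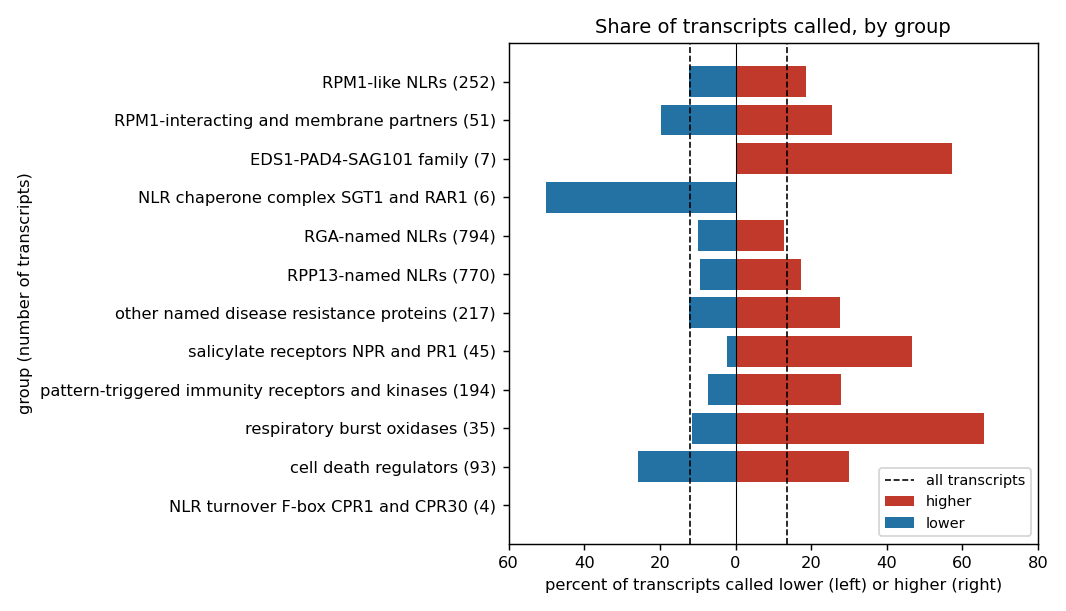
Percent of transcripts called higher (right) and lower (left) by limma in RPM1-like NLRs and in lists of other NLRs and of immune signalling proteins, with the number of transcripts in brackets. Dashed lines mark the share over all transcripts (13.5% higher, 11.9% lower): the RPM1-like share is 18.7% and 12.3%, and the respiratory burst oxidases reach 65.7% higher.

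A further 81 transcripts with the same annotation and a best hit in the same grasses had deposited values with at most 2 decimals. They give the authors' FPKM as 1 value per group and were not tested. They were low, with a median of 0.78 in control and 1.10 in hypergravity and a highest value of 3.42. The hypergravity value was larger in 49 (60.5%) and smaller in 32, where 68.3% of all 55815 such rows had a larger hypergravity value. Of the 363 transcripts named RPM1, 10 had values per library but no best hit named in the same grasses, and 3 of these were higher and 1 lower.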

How the data were processed

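Transcripts of wheat roots (2 control and 2 hypergravity libraries, mRNA, stranded paired-end per the labels) were taken from the deposited table. Abundance was estimated with RSEM, per the submitters' processing notes, and the sources used here do not name the assembler or filters. The deposited table holds a single value for each group, which the headers name FPKM. In 91482 rows with over 2 decimals, the deposited value (a signal, not FPKM) was resolved into 2 whole read counts divided by their libraries' size factors and added. Exactly 1 pair of counts per value met a tolerance of 1e-09 in 100% of rows, and the size factors (1.01 and 1.06 in control, 0.959 and 0.971 in hypergravity) equalled median-of-ratios factors of the recovered counts. In the other 55815 rows the values have at most 2 decimals and were not tested.

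The log2 of normalized count plus a pseudocount of 1 was fitted with limma 3.58.1 in R 4.3.3 (eBayes with trend, 2 residual and 7.91 prior degrees of freedom). P-values were adjusted over all 91482 transcripts. Fold changes on this scale understate changes of low transcripts. The resolving step and the fit were tested on simulated data. Recovered counts per library set the precision, and the median SE over all transcripts was 0.18.

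Members and lists were chosen with earlier results of these data known. Lists are text patterns in the best-hit description, limited to the same grasses; a list of helper NLRs (ADR1, NRG1) found 0 transcripts. Named members are the 12 called rises and 8 called falls of largest change with groups apart, 1 per assembled gene, the 3 highest per kilobase, and all members of genes called both ways; lists name at most 3 called transcripts each. Alternatives were other pseudocounts, a filter on low values, other scalings, voom weights, no trend and leaving out each library.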

Additional observations from a re-analysis of the deposited data

Results flagged for a closer look

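Among the 81 RPM1-like transcripts with values of at most 2 decimals, 4 are listed at 0 FPKM in control and above 0 in hypergravity, in data that the comparisons above do not use. The authors' hypergravity values were 1.71 for TRINITY_DN110251_c0_g1_i1, 1.79 for TRINITY_DN57861_c0_g2_i2, 0.93 for TRINITY_DN79782_c0_g1_i1 and 1.97 for TRINITY_DN79782_c0_g2_i1. A value of 0 in control was listed for 30.4% of all rows of this kind and for 4.94% of the RPM1-like ones. These are single values per group with no replicate, so the differences were not tested.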

How the results depend on the processing

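Of the called members, 29 of 47 higher and 14 of 31 lower were called under each of the 11 alternatives they could be fitted in, and 0 of the called members changed direction in any. The RPM1-like lower count was 15 at an adjusted p under 0.01 and 15 when counts were summed per assembled gene. Without the mean-variance trend, 6622 of all transcripts and 149 of the immune list transcripts were lower (10928 and 234 with it). Leaving out 1 library gave 20 to 25 lower and 32 to 40 higher members, 20 to 26 higher and 9 to 12 lower assembled genes, 6983 to 10804 lower transcripts of all, and 291 to 367 higher and 147 to 183 lower transcripts of the immune lists (438 and 234 with all libraries); a group left with 1 library was assumed to vary like the other. The causes were not tested, beyond the fewer libraries. The members' median stayed between 0.09 and 0.13 without single libraries. A mean of at least 50 kept 210 members. Total-count scaling and quantile normalization moved the median of all transcripts by 0.01 and -0.02. No paired analysis was possible because the recovered libraries carry no replicate number.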
